A study of Rattus norvegicus with 4 samples.

Results

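The immunoproteasome and the machinery that loads peptides onto major histocompatibility complex (MHC) class I molecules were followed in rat liver during inhalational anesthesia. The 10 genes were chosen by name: the catalytic subunits Psmb8, Psmb9, and Psmb10, the PA28 activator genes Psme1 and Psme2, the peptide transporter genes Tap1 and Tap2, the tapasin gene Tapbp, the light chain gene B2m, and the class I transactivator gene Nlrc5. Annotated rows longer than 200 base pairs with these symbols were taken, and the level in TPM, which is scaled for gene length and library size, was summed over rows of the same symbol. Of the 10 genes, 9 had a row in each of the 4 libraries, among 16992 genes in all, and these 9 exceeded 2 TPM in all 4 libraries. Nlrc5 had 0 annotated rows in the files and was not analysed here.

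Liver RNA (left lateral lobe) came from 4 male, wild type Wistar rats obtained at 6 weeks of age, 1 for each condition. One rat inhaled 4.5% sevoflurane for 6 hours and another inhaled 6% desflurane for 6 hours. Each agent had its own control, a rat that inhaled the same agent and was killed as soon as it lost consciousness. All 4 rats therefore received an anesthetic and went without food and water for 2 hours before it. The design asks how the liver transcriptome changes under each agent. Because each condition is a single library, differences between them could not be checked on replicate libraries and no p-values were calculated. The difference between the 2 controls is the nearest measure of how far livers differ before prolonged exposure. By quantitative PCR on replicate livers, the paper reported Irf1 and Mx2, which are described below, as significantly downregulated by both agents. None of the 10 chosen genes was measured there. The libraries corresponded to between 4.47 and 5.40 Gb of aligned sequence, and the number of genes higher than 2 TPM was between 9474 and 9695. The 10 hepatocyte markers summed to between 146771 and 163460 TPM and were abundant in each library. The methods and the labels name different Illumina library kits, both for stranded total RNA. Acinar cell (pancreas) markers set the sevoflurane control apart: the 11 genes summed to 62.7 TPM there and to between 16.5 and 18.9 TPM in the other libraries. Most of the latter sums came from Cela1 alone. It gave 22.8 TPM in the sevoflurane control, 18.4 TPM after sevoflurane, 15.1 TPM in the desflurane control, and 15.2 TPM after desflurane.

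Nearly all nucleated cells cut cytosolic proteins into peptides with the proteasome, carry the peptides into the endoplasmic reticulum through the TAP transporter, and load them onto a heavy chain paired with beta-2 microglobulin. Interferons replace the constitutive catalytic subunits of newly assembled proteasomes with the inducible ones and raise the transporter, the PA28 activator, and the class I genes at the same time, in part through IRF1 and NLRC5. In the liver these genes are expressed in hepatocytes and more strongly in resident immune and endothelial cells.

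Against its own control, the liver after 6 hours of sevoflurane had lower TPM values for all 9 measured genes. Psmb8, Psmb9, and Tap1 fell 3.10-, 3.13-, and 3.45-fold. After 6 hours of desflurane, 8 of the 9 genes were lower than in their own control and B2m was 1.05-fold higher, but none of them was downregulated more than 2-fold (the largest difference was in Psmb10, 1.94-fold lower). Downregulated here means a TPM value higher than 2 in the control and more than 2-fold lower after 6 hours. This applied to 3.38% of all eligible genes for sevoflurane and to 1.53% for desflurane. The median log2 fold change of the 9 genes was -0.78 for sevoflurane and -0.41 for desflurane, whereas the medians over the 9136 genes higher than 2 TPM in every library were 0.05 and 0.12. Among these 9136 genes, 42.9% were lower by any amount after sevoflurane and 33.0% after desflurane. For 8 of the 9 genes, B2m being the exception, both anesthetized livers lay below both controls, a pattern shown by 13.0% of the 9136 genes. In bulk tissue, fewer cells of a type and less RNA per cell cannot be told apart.

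**Figure D1:**
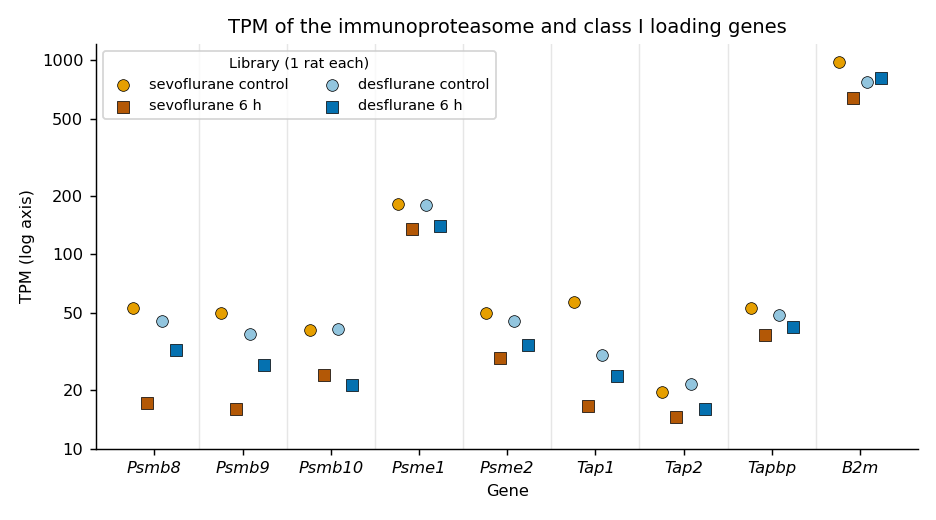
TPM (log axis) of the 9 measured genes, with 1 point per library, circles for controls, and squares for 6 hours of anesthesia. Psmb8, Psmb9, and Tap1 were lowest after sevoflurane, at 17.1, 16.0, and 16.6 TPM, and B2m was the most abundant gene in each library.

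In the files' rn6 coordinates, 4 of the genes lie side by side in the MHC region of chromosome 20, within 36.2 kb. Psmb9 (chr20:3973424-3978845, minus strand) and Tap1 (chr20:3979302-3989669, plus strand) are transcribed in opposite directions from starts 456 bases apart. Psmb8 (chr20:3990809-3993772) and Tap2 (chr20:3995544-4009587) follow on the plus strand. A second Tap2 row (chr20:5198165-5212207, minus strand) of almost the same length lies 1.19 Mb away, and Tapbp (chr20:5468056-5476007, minus strand) lies beyond it. The other genes are on other chromosomes: Psmb10 at chr19:37909544-37912027, Psme1 at chr15:34256071-34258947, Psme2 at chr15:34265555-34269851, and B2m at chr3:114087287-114093311.

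The start regions are shown because 7 of the 9 measured genes hold the same short sequence element there, and because Tap1 and Psmb9 face each other across one short stretch. Sequences are from the RefSeq promoter table (GRCr8, 250 bases before to 50 bases after each start), in which all 9 measured genes were found and Nlrc5 was not. In GRCr8 this part of chromosome 20 runs in the other direction, so that the strands are opposite to those in rn6. The 250 bases before Tap1 (chr20:4668544-4668793, minus strand) and before Psmb9 (chr20:4668750-4668999, plus strand) read as follows, 5′ to 3′ toward each start. Capitals mark a match to GAAANNGAA, the core of the interferon-stimulated response element, or to its reverse complement.
Tap1: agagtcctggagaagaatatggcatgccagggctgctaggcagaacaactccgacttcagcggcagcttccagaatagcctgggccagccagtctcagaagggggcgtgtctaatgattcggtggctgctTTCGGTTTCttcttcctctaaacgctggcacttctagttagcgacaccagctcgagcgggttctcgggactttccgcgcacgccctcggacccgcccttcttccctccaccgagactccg
Psmb9: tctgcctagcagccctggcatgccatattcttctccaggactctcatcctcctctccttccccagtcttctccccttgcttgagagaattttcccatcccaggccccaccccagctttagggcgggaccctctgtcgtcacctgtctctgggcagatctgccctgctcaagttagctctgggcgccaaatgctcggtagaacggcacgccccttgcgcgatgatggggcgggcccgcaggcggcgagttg
The 2 stretches share 44 bases. The Tap1 match lies in the space between the 2 genes, 111 bases from the Tap1 start and 336 bases from the Psmb9 start, outside the window of Psmb9.

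The same letters occurred near the starts of other members, each shown with the bases around it and with capitals as above. The stretches are Psmb10 at chr19:50743293-50743380, Psme2 at chr15:33052781-33052819, Tap2 at chr20:4652314-4652352, Tapbp at chr20:4967878-4967918, and Psmb8 at chr20:4657026-4657049, all on the minus strand, and B2m at chr3:129549165-129549203 on the plus strand.
Psmb10: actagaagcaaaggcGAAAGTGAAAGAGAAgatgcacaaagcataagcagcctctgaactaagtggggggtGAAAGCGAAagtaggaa
Psme2: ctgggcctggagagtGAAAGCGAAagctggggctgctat
Tap2: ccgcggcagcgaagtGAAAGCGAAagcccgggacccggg
Tapbp: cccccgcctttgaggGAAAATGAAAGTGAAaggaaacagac
B2m: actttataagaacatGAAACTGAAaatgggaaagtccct
Psmb8: cttggtgctgtggctTTCGCTTTC
With both strands searched, GAAANNGAA occurred in the windows of 7 of the 9 genes (not Psmb9 or Psme1) and in 9.71% of all 33469 promoters of the table. Psmb10 held 3 matches and Tapbp 2, and in each of these genes a pair of them overlapped. The first base of the match lay 53 bases before the start in Psme2, 41 in Tap2, and 150 in B2m, and the Psmb8 match spanned the start itself.

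Further motifs were searched in the same way. TTCNNNGAA, the gamma-activated site, was found in Psmb8 alone among the members (245 bases before the start) and in 8.87% of all promoters. The kappa B motif was found in B2m, Tap1, and Tapbp and in 4.18% of all promoters, and CCAAT, the Y box, in B2m, Psmb8, and Psmb9 and in 37.5%. No match of one motif overlapped a match of another.

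The catalytic subunits of the immunoproteasome are the inducible forms of 3 beta subunits of the 20S core. Psmb8 encodes the inducible chymotrypsin-like subunit, which takes the place of Psmb5. Its level was 53.2 TPM in the sevoflurane control, 17.1 TPM after 6 hours of sevoflurane, 45.6 TPM in the desflurane control, and 32.2 TPM after 6 hours of desflurane. Psmb9, which takes the place of Psmb6, gave 50.2, 16.0, 38.8, and 26.9 TPM in the same order. Both genes were lowest after sevoflurane, intermediate after desflurane, and highest in the sevoflurane control. Psmb10, which takes the place of Psmb7, gave 41.0, 23.9, 41.4, and 21.3 TPM. Its controls were almost equal (1.01-fold apart), and it was the single member that was lower after desflurane than after sevoflurane (1.12-fold). It was 1.72-fold lower after sevoflurane and 1.94-fold lower after desflurane than in the own controls.

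The ratio of an inducible subunit to its constitutive counterpart within a library does not depend on scaling between libraries. Psmb8/Psmb5 was 0.466 in the sevoflurane control, 0.132 after sevoflurane, 0.394 in the desflurane control, and 0.302 after desflurane. Psmb9/Psmb6 was 1.35, 0.416, 1.34, and 0.863 in this order. The first of these ratios was therefore 3.53-fold lower after sevoflurane and 1.31-fold lower after desflurane than in the own controls, and the second was 3.24- and 1.55-fold lower. Against the other agent's control the reductions were 2.98- and 1.55-fold for Psmb8/Psmb5 and 3.22- and 1.56-fold for Psmb9/Psmb6, so that the order of the agents did not depend on the control. Psmb10/Psmb7 behaved otherwise, at 0.435, 0.248, 0.479, and 0.245, and was nearly equal after both agents.

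The constitutive subunits themselves stayed close to their control levels. Psmb5 was between 107 and 130 TPM, Psmb6 between 29.0 and 38.6 TPM, and Psmb7 between 86.4 and 96.0 TPM. None of the 3 passed the 2-fold limit in either direction, and their median log2 change, on the log2(TPM + 1) scale used here for gene lists, was 0.05 for sevoflurane and 0.01 for desflurane. These small values became -0.0022 and -0.12 with median-of-ratios scaling. In both controls Psmb9 exceeded Psmb6, whereas Psmb8 and Psmb10 were below their counterparts in all 4 libraries.

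**Figure D2:**
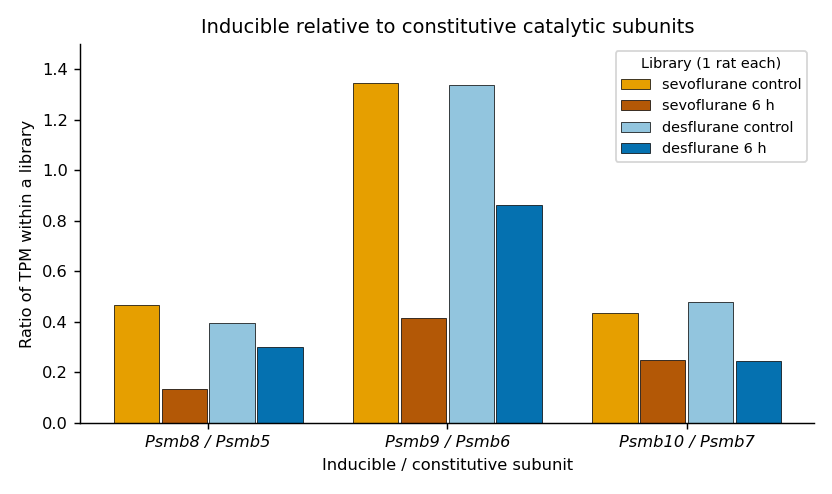
Ratio of the TPM of each inducible catalytic subunit to that of its constitutive counterpart, with 1 bar per library and the axis starting at 0. The bars for Psmb8 and Psmb9 were lowest after sevoflurane (0.132 and 0.416), and those for Psmb10 were almost equal after both agents (0.248 and 0.245).

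PA28 is a ring that binds the ends of the proteasome core and promotes the release of peptides, and Psme1 and Psme2 encode its alpha and beta subunits. Psme1 was the second most abundant member, with 183 and 180 TPM in the sevoflurane and desflurane controls and 135 and 140 TPM after sevoflurane and desflurane, respectively. Psme2 gave 49.99 and 45.6 TPM in the controls and 29.2 and 34.3 TPM after the agents. Both genes lay below both controls after either agent, by 1.35- and 1.71-fold with sevoflurane and by 1.29-fold (Psme1) and 0.41 on the log2 scale (Psme2) with desflurane against the own controls, and neither passed the limit. The Psme1 row overlaps the row of Emc9 by 8 bases. Of the other proteasome regulators and assembly factors (Psme3, Psme4, Psmf1, Pomp, Psmg1, and Psmg2), 0 of 6 passed the limit with either agent. Psme3, the gamma subunit of the related PA28 activator of the nucleus, stayed between 26.1 and 29.1 TPM, and Pomp, the proteasome maturation protein, between 127 and 139 TPM. The median log2 change of these 6 genes was 0.07 for sevoflurane and 0.09 for desflurane, the latter -0.03 with median-of-ratios scaling.

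TAP is a heterodimer of the Tap1 and Tap2 products, and tapasin holds it next to the empty class I molecule. Tap1 was 57.1 TPM in the sevoflurane control, 16.6 TPM after sevoflurane, 30.4 TPM in the desflurane control, and 23.7 TPM after desflurane. Its controls lay 1.88-fold apart, the widest gap between controls among the 9 genes, and this decided which comparison passed the limit. Tap1 was 3.45-fold lower after sevoflurane than in its own control but 1.84-fold lower than in the desflurane control. After desflurane it was 1.28-fold lower than in its own control but 2.40-fold lower than in the sevoflurane control. Against the mean of the 2 controls, a comparison added after the values were seen, Tap1 was 2.64-fold lower after sevoflurane and 1.84-fold lower after desflurane. The sevoflurane control, the library with the highest sum of acinar markers, had the highest Tap1, and the part of acinar cells in this gap was not tested.

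Tap2 gave 19.5, 14.6, 21.7, and 16.0 TPM (sevoflurane control, sevoflurane, desflurane control, and desflurane) and was 1.34-fold lower with sevoflurane and 1.36-fold lower with desflurane against the own controls. These are sums of the 2 Tap2 rows, and reads of a near-identical copy may be split between them. The row beside Psmb8 gave 10.02, 6.03, 9.86, and 7.73 TPM and the distant row 9.47, 8.54, 11.8, and 8.24 TPM. The first row fell more with sevoflurane and the distant row more with desflurane. Because reads may be split, the change cannot be placed in either row. Tapbp was 53.2 and 49.0 TPM in the sevoflurane and desflurane controls and 38.7 and 42.2 TPM after the respective agents. Unlike Tap1, Tap2 and Tapbp passed the 2-fold limit in none of the 6 comparisons. Of the other genes for loading and peptide trimming (Calr, Canx, Pdia3, Tapbpl, Erap1, and Lnpep), 0 of 6 passed the limit with either agent, and their median log2 change was -0.14 and -0.06. Canx, the chaperone calnexin, was between 206 and 220 TPM, and Pdia3, a thiol oxidoreductase of the loading complex, between 411 and 464 TPM. Tapbpl, the tapasin-related editor, was 25.0 TPM in the sevoflurane control and 17.5 TPM after sevoflurane, against 23.9 and 22.9 TPM for desflurane.

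B2m encodes the light chain shared by class I molecules and ranked 121 of 9136 genes by mean TPM. It was 982 TPM in the sevoflurane control, 637 TPM after sevoflurane, 769 TPM in the desflurane control, and 809 TPM after desflurane. The desflurane library therefore lay between the 2 controls, and the sevoflurane library lay 1.54-fold below its own control and 1.21-fold below the desflurane control. The higher value with desflurane (log2 0.07) became slightly lower (-0.05) with median-of-ratios scaling. The heavy chains that pair with it were taken as all symbols beginning with RT1-A, RT1-CE, RT1-CL, RT1-M, RT1-N, RT1-O, RT1-S, or RT1-T. Many of these 38 genes are near-identical, so that values of single genes are uncertain. After sevoflurane, 29 were lower and 8 downregulated (median -0.46). After desflurane, 26 were higher and 11 lower, RT1-N1 and RT1-N2 were downregulated, and RT1-M2 was upregulated (median 0.11, and 0.02 with median-of-ratios scaling). Only 30 of the 38 exceeded 2 TPM in any library. Of the 9136 genes higher than 2 TPM in every library, 42.9% were lower after sevoflurane and 33.0% after desflurane. The median over these genes with desflurane was also 0.11, so that no rise particular to the heavy chains was seen. In all, 2.84% of eligible genes were upregulated more than 2-fold by desflurane and 2.30% by sevoflurane. RT1-A2, the most abundant heavy chain, gave 283 TPM in the sevoflurane control, 182 TPM after sevoflurane, 251 TPM in the desflurane control, and 274 TPM after desflurane. RT1-N1, a non-classical gene, gave 8.22 and 2.001 TPM for sevoflurane and 7.46 and 2.96 TPM for desflurane. Against the other agent's control, the median of the heavy chains was -0.29 for sevoflurane and -0.0079 for desflurane.

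**Figure D3:**
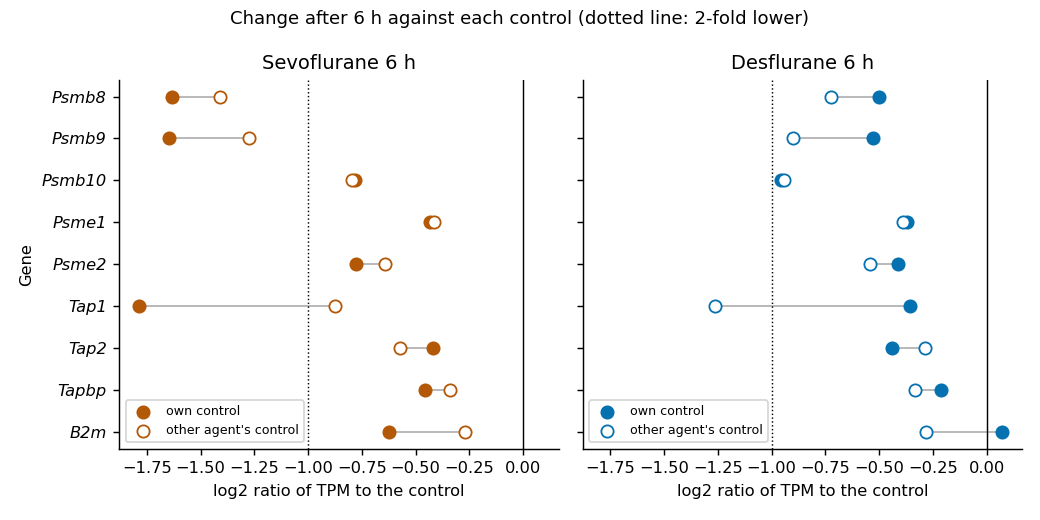
Log2 ratio of TPM after 6 hours to the TPM of a control, for each of the 9 genes, with filled points for the own control, open points for the other agent's control, and a dotted line at 2-fold lower. Psmb8 and Psmb9 lay beyond the line with both controls after sevoflurane, whereas Tap1 crossed it with the sevoflurane control (3.45- and 2.40-fold lower) and not with the desflurane control.

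Each anesthetized liver was then set against the other agent's control. These comparisons share libraries with those above and are no independent check. Against the desflurane control, sevoflurane gave lower values for 9 of 9 genes, with Psmb8 (2.66-fold) and Psmb9 (2.42-fold) downregulated and a median log2 fold change of -0.64. In this comparison, 2.64% of eligible genes were downregulated and 40.6% of the 9136 genes were lower. Against the sevoflurane control, desflurane also gave lower values for 9 of 9 genes, with Tap1 (2.40-fold) downregulated and a median of -0.54, where 1.64% of eligible genes were downregulated and 35.8% were lower. Psmb9 and Psmb10 came close to the limit there, at 1.87- and 1.92-fold lower, and passed it with median-of-ratios scaling (2.01- and 2.07-fold).

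The 2 controls were not alike for these genes. Values in the desflurane control were below those in the sevoflurane control for 7 of 9 genes (55.3% of the 9136 genes were lower), with a median log2 difference of -0.13, and none was more than 2-fold lower (1.20% of eligible genes were). Psmb9 was 1.29-fold, B2m 1.28-fold, and Psmb8 1.17-fold lower in the desflurane control, whereas Psme1 and Psmb10 differed by 1.01-fold. When the anesthetized livers were set side by side, desflurane was higher than sevoflurane for 8 of 9 genes (57.8% of the 9136 genes were higher). The difference was 1.88-fold for Psmb8, 1.68-fold for Psmb9, and 1.43-fold for Tap1, and 1.27-fold or less for the other genes that were higher. None passed the 2-fold limit, which 2.80% of eligible genes passed.

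**Figure D4:**
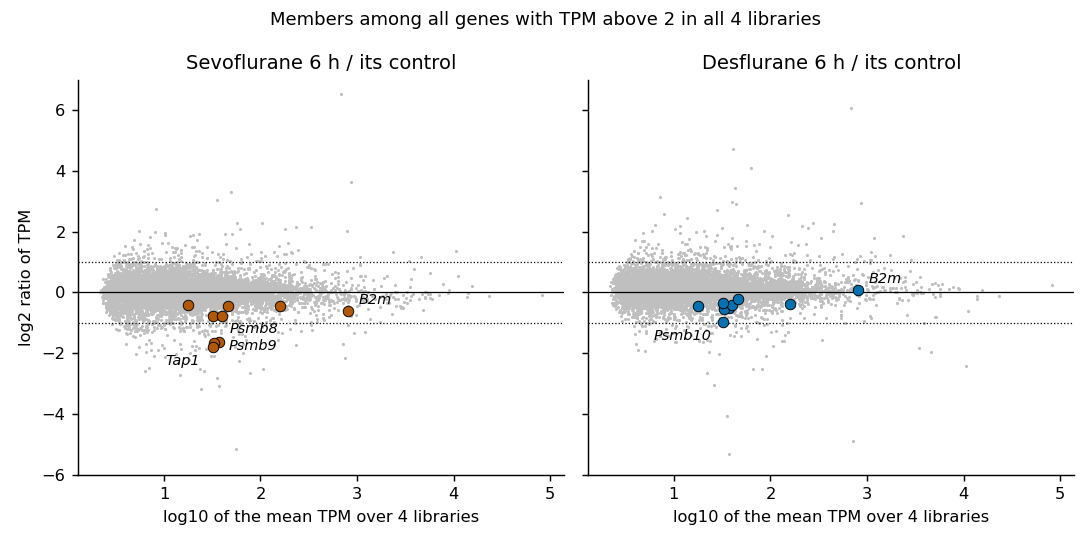
Log2 ratio of TPM after 6 hours to the own control against the log10 mean TPM of the 4 libraries, for the 9136 genes higher than 2 TPM in each library (gray) and the 9 members (colored). Tap1, Psmb9, and Psmb8 stand at ranks 34, 45, and 46 from the lowest ratio after sevoflurane, and Psmb10 stands at rank 102 after desflurane.

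Transcriptional regulators of the pathway were also measured. Irf1, a transcription factor that activates class I and immunoproteasome genes, was 23.8 TPM in the sevoflurane control, 4.71 TPM after sevoflurane, 19.1 TPM in the desflurane control, and 8.65 TPM after desflurane. It was downregulated with both agents, 5.05-fold and 2.21-fold against the own controls and 4.06-fold and 2.75-fold against the other agent's control. The median log2 change of the regulators was -0.20 with sevoflurane and 0.02 with desflurane (-0.10 for desflurane with median-of-ratios scaling). Rfx5, a subunit of the complex through which NLRC5 acts on class I promoters, gave 5.11, 2.95, 5.33, and 4.25 TPM. Its partners in this complex were not lower against the own controls. Rfxap gave 6.34, 6.36, 5.72, and 6.58 TPM. Rfxank gave 5.68, 10.2, 5.63, and 7.78 TPM and was higher after both agents. Ifng, the gene for interferon gamma, was 0.438 TPM in the sevoflurane control and listed at 0 in the other libraries. Socs1, an inhibitor of this signal, was 1.34, 0.511, 1.20, and 0.309 TPM, too low for the limit. Of the 6 genes of the interferon gamma signal, 4 exceeded 2 TPM in any library and none of these passed the limit with either agent (median over all 6 -0.38 and 0.03, the latter -0.03 with median-of-ratios scaling).

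Most other interferon-induced genes that take no part in class I loading were lower as well. Of 20 such genes, 19 had a row. Against the own controls, 18 were lower with sevoflurane and 16 with desflurane, beside 42.9% and 33.0% of the 9136 genes. Of the 19, 11 were downregulated by sevoflurane and 2 (Mx2 and Isg15) by desflurane, with medians of -1.02 and -0.34. These counts stand beside 3.38% and 1.53% of all eligible genes. Against the other agent's control, 8 were downregulated by sevoflurane and 9 by desflurane (medians -0.53 and -0.80), beside 2.64% and 1.64% of eligible genes. Of the list, 4 genes (Gbp2, Gbp5, Igtp, and Usp18) were more than 2-fold lower in the desflurane control than in the sevoflurane control. With a shared control the order of the agents did not turn. Against the sevoflurane control, 11 were downregulated by sevoflurane and 9 by desflurane (medians -1.02 and -0.80). Against the desflurane control, these counts were 8 and 2 (medians -0.53 and -0.34). Set side by side, desflurane was higher than sevoflurane for 11 of the 19 genes, near the 57.8% of the 9136 genes. With median-of-ratios scaling, 4 were downregulated by desflurane against its own control. Gbp2, a guanylate-binding protein gene, was 30.1 TPM in the sevoflurane control, 4.597 TPM after sevoflurane (6.55-fold lower), 14.7 TPM in the desflurane control, and 9.25 TPM after desflurane. Mx2, an antiviral GTPase gene, gave 29.1, 12.4, 29.3, and 9.38 TPM in the same order, with almost equal controls. Class II genes, which serve antigen-presenting cells, were lower after sevoflurane in 12 of 12, with 7 downregulated (median -1.17). They were higher after desflurane in 11 of 12, with 0 past the limit (median 0.23). Among the 9136 genes, 42.9% were lower after sevoflurane and 33.0% after desflurane, and their median with desflurane was 0.11. Of the 12 class II genes, 8 exceeded 2 TPM in any library. All 12 were lower in the desflurane control than in the sevoflurane control (median -0.69). Against the sevoflurane control, desflurane gave lower values for 11 of 12 (median -0.43), so that the direction with desflurane turned with the control. Against the desflurane control, sevoflurane gave lower values for 11 of 12 (median -0.52). Of the 22 genes within 200 kb of the Psmb9 to Tap2 cluster, 6 were downregulated by sevoflurane and 0 by desflurane (medians -0.44 and 0.13, and -0.13 and -0.10 against the other agent's control). This list holds 10 of the class II genes and 2 heavy chains.

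Markers of blood and resident immune cells were lower together with the members after sevoflurane. The 12 leukocyte markers summed to 267 TPM in the sevoflurane control, 137 TPM after sevoflurane, 194 TPM in the desflurane control, and 184 TPM after desflurane. All 12 were lower after sevoflurane, and 4 (Ptprc, Cd53, Tyrobp, and Rac2) were downregulated (median -0.78). After desflurane, 7 were lower and 5 higher (median -0.09). Against the other agent's control, 12 were lower after sevoflurane and 11 after desflurane (medians -0.44 and -0.42). With a shared control, sevoflurane gave the lower median. The medians were -0.78 and -0.42 against the sevoflurane control, and -0.44 and -0.09 against the desflurane control. Set side by side, all 12 were higher after desflurane than after sevoflurane, beside 57.8% of the 9136 genes. Of them, 4 (Ptprc, Cd53, Rac2, and Cd37) were more than 2-fold higher, beside 2.80% of eligible genes. The 11 measured Kupffer cell and macrophage markers summed to 809, 485, 641, and 757 TPM, with Marco, Cd5l, Csf1r, and Adgre1 downregulated by sevoflurane. Tyrobp, a signaling adaptor of myeloid and NK cells, gave 48.9, 22.8, 34.3, and 33.6 TPM, and Clec4f, a Kupffer cell receptor, gave 121, 76.5, 94.7, and 123 TPM. Immune markers were therefore lowest in the liver in which Psmb8, Psmb9, and Tap1 were lowest. After desflurane, 8 of the 9 members and the leukocyte sum were lower than in the own control, and the macrophage sum was higher. Against the sevoflurane control, the macrophage sum after desflurane was lower (757 against 809 TPM). The macrophage median with desflurane was 0.19 against its own control and 0.06 with median-of-ratios scaling. How these markers relate to the members was not tested.

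Markers of lymphocytes and dendritic cells were low. The 12 T and NK cell markers summed to 30.3, 16.8, 21.4, and 24.8 TPM, of which Cd3d and Cd3g were at 0 in the desflurane control. The 5 measured B cell markers summed to 11.3, 6.35, 9.55, and 9.99 TPM, and the 5 measured dendritic cell markers to 8.95, 5.90, 6.97, and 9.35 TPM. Sinusoidal endothelial markers (6 measured) summed to 184, 177, 178, and 212 TPM and erythroid markers (5 measured) to 87.6, 59.9, 63.4, and 35.9 TPM. Of the 11 acinar genes, 0 were at 0 in the sevoflurane control, and 5, 6, and 7 were at 0 in the other libraries. The part of these cell types in the results was not tested.

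**Figure D5:**
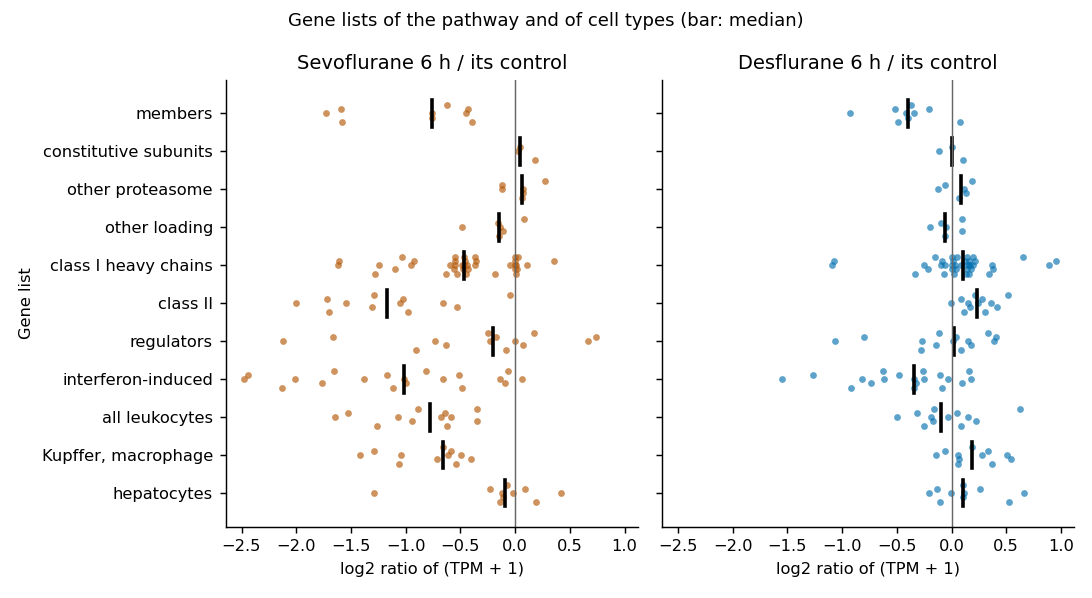
Log2 ratio of (TPM + 1) after 6 hours to the own control, with 1 point per gene, lists in rows, and a bar at the median of each list. The members had medians of -0.76 with sevoflurane and -0.40 with desflurane, and the Kupffer cell and macrophage markers had medians of -0.65 and 0.19.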

How the data were processed

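The labels and methods gave 4 libraries, 1 per condition. The authors used sickle for trimming, HISAT2 2.1.0 for mapping to rn6, SAMtools 1.10 for sorting, and StringTie 2.1.2 with the refGene annotation for quantification. The deposited coverage (signal over exons) is not normalized. The deposited FPKM values were normalized by the authors for length and library size. The deposited TPM values are a signal scaled so that assembled rows sum to 1000000, and annotated rows were used here. No read counts were used here. The coverage behind the members was between 24.7 (Tap2) and 1765 (B2m), and precision is otherwise unknown.

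Annotated rows longer than 200 base pairs were kept, and TPM values were summed per symbol. A call required a TPM value higher than 2 in the higher state and a difference of more than 2-fold, without a pseudocount, as in the methods of the paper. Gene lists used log2(TPM + 1). In all, 6 comparisons were described and none was tested. The members and lists were chosen with earlier results of these data known. The text names the members, the genes of these lists, and the 8 genes of mean TPM higher than 5 most like the members. A few of these genes are not reported here. Alternatives were other TPM and fold limits, a pseudocount of 1, median-of-ratios scaling, FPKM or coverage in place of TPM, 1 row per gene, no length filter, and the mean of both controls (added after the values were seen). Motifs were searched in the RefSeq promoters of GRCr8. Python 3.11.15, numpy 2.4.6, pandas 2.3.3, and matplotlib 3.10.9 were used. The calling code was checked on simulated data with known changes. These data hold no variation between rats, so the check does not measure how reliable the calls are.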

Additional observations from a re-analysis of the deposited data

Results flagged for a closer look

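For the following results the agents moved in opposite directions against their own controls. Each value rests on 1 library per state, and no test of the agents against each other was made. The opposition also depends on which control is used. With the desflurane control for both agents, the signs stayed opposite for B2m (-0.27 and 0.073) and for every list below. With the sevoflurane control for both agents, B2m (-0.63 and -0.28) and every list below were lower with each agent. With each agent set against the other agent's control, no list below had medians of opposite sign, and the B2m values were -0.27 and -0.28. B2m had a log2 fold change of -0.63 with sevoflurane and 0.073 with desflurane, the latter lower than the control under 3 alternatives given in the next part. The class I heavy chains had median log2 changes of -0.46 and 0.11, the class II genes of -1.17 and 0.23, and the neighbours of the Psmb9 to Tap2 cluster, which hold class II genes and heavy chains, of -0.44 and 0.13. Among cell type markers, the medians were -0.65 and 0.19 for Kupffer cells and macrophages, -0.41 and 0.13 for T and NK cells, and -0.37 and 0.34 for dendritic cells. On this scale, the genes higher than 2 TPM in every library had medians of 0.05 and 0.11. The desflurane medians of the heavy chains, neighbours, and T and NK cells were near the latter. With median-of-ratios scaling, the desflurane medians were 0.020 for the heavy chains, 0.037 for the neighbours, and 0.10 for class II. They were 0.064 for Kupffer cells and macrophages, 0.088 for T and NK cells, and 0.25 for dendritic cells. Against the other agent's control, the medians (sevoflurane, then desflurane) were -0.29 and -0.0079 for the heavy chains, -0.52 and -0.43 for class II, -0.13 and -0.10 for the neighbours, -0.32 and -0.11 for Kupffer cells and macrophages, -0.16 and -0.17 for T and NK cells, and -0.019 and -0.010 for dendritic cells.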

How the results depend on the processing

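With 1 library per condition, leaving out a library was not possible, and no paired analysis was possible because the groups hold 1 sample each. Of 56 counts past the limit, 45 stayed within 1.5 times the count reported, as did 26 of 32 medians within 0.1 and 270 of 288 single values in direction and side of the limit. The 24 subunit ratios were the same with FPKM or coverage. Median-of-ratios scaling moved the median of all genes by -0.05 for sevoflurane and -0.13 for desflurane against the own controls, and FPKM moved it by between -0.25 and 0.13. Read depth per gene is unknown. No 2 libraries share a state, so the difference between rats of the same state could not be measured.

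A 1.5-fold limit gave 6 members for sevoflurane and 1 for desflurane against the own controls, 5 and 4 against the other controls, 1 between controls, and 2 between the anesthetized livers. Median-of-ratios scaling gave 1 member for desflurane against its own control (Psmb10, 2.12-fold lower) and 3 against the sevoflurane control, and FPKM gave 1, 3, and, between controls, 1 (Tap1). The median log2 change with median-of-ratios scaling was -0.54 for desflurane against its own control and -0.65 against the sevoflurane control. With FPKM it was -0.52 for sevoflurane against the desflurane control, -0.80 for desflurane against the sevoflurane control, -0.31 between controls, and 0.030 between the anesthetized livers. B2m with desflurane against its own control turned to -0.053 with median-of-ratios scaling, -0.0040 with FPKM, and -0.11 against the mean of both controls. Between controls, Psmb10 (-0.16) and Tap2 (-0.024) reversed with FPKM and Psme1 (0.0018) with median-of-ratios scaling. Between the anesthetized livers, Psme1 reversed with median-of-ratios scaling (-0.011) and FPKM (-0.16), Tapbp with FPKM (-0.078), and Tap2 with FPKM (-0.071) and with the higher of its rows alone (-0.052). The cause of these reversals was not tested.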

Other observations

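The genes whose levels over the 4 libraries were most like the median profile of the 9 members were found by the distance between centered log2(TPM + 1) values, among 7918 genes with a mean TPM higher than 5. With 4 libraries such a likeness is a description and many genes can share it. Near the profile were Rab8b (distance 0.0591) and Lasp1 (0.0615), followed by Tmsb4x (0.0789), Lpar6 (0.0807), Gmfg (0.0923), Marcksl1 (0.0950), and Ca14 (0.103). Rab8b gave 23.2 TPM in the sevoflurane control, 14.3 TPM after sevoflurane, 22.1 TPM in the desflurane control, and 16.5 TPM after desflurane. Tmsb4x, the gene for the actin-binding peptide thymosin beta-4, gave 302, 195, 271, and 207 TPM. The genes named here were highest in a control and lowest after sevoflurane. Of the members, Psme2 lay closest to the profile (0.0595), whereas Psmb9 (0.655), Psmb8 (0.698), and Tap1 (0.760) lay farthest from it.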
